A study of Mus musculus with 6 samples.

Results

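Mesoderm explants treated with an inhibitor that the labels call PD were compared directly with explants treated with YZ9. The comparison covered 14926 genes, those with at least 10 counts in at least 2 of the 4 inhibitor libraries, out of 46078 genes in the joined count tables. Of the 46078 genes, 25055 had a count in any of the 4 libraries. Explants came from E7.25 mouse embryos, a stage when mesoderm is still forming. The dissected mesoderm attached to a fibronectin coat within 3 to 4 h and was harvested for polyadenylated RNA sequencing after 27 h of culture by the growth protocol, or 24 h by the design text of the series. The labels give the genotype as WT, and the design text names mice with a TCF/Lef:H2B-GFP reporter. One group of 2 libraries received PD at 1 µM for 16 h, another group of 2 received YZ9 at 10 µM for 16 h, and the remaining 2 libraries are labelled control. The doses of the inhibitors therefore differed, no vehicle is named for the controls, and the labels do not expand the name PD. They do not say either whether libraries of a group came from separate cultures, so p-values measure only the spread between these libraries. The controls had identical counts in both tables and were used to show which inhibitor moved a gene away from the control level.

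Cells of the gastrulating embryo read fibroblast growth factors through receptor tyrosine kinases, which signal through RAS, RAF, MEK and ERK. Active ERK switches on its own brakes, among them the Sprouty and Spred proteins and the dual-specificity phosphatases, and the ETS factors of the Etv family. YZ9 has been described to block PFKFB3, a kinase whose sugar bisphosphate product activates phosphofructokinase and so speeds up glycolysis. WNT, BMP, Nodal and FGF signals together pattern mesoderm into blood, vessel, heart and paraxial fates.

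Total counts ran from 21253194 to 27810161 across the 6 libraries, and mitochondrially encoded genes took 0.806% to 1.13% of counts. Replicate 1 of PD and replicate 1 of YZ9 had Y-linked counts and no Xist. Replicate 2 of each had Xist and almost no Y-linked counts, so sex was balanced between the inhibitors. The libraries of each inhibitor thus came from embryos of different sex, and the spread between them includes any effect of sex. Both controls had Y-linked counts and at most 1 Xist count. Comparisons with control were therefore not balanced for sex, and the part of sex in them was not tested. Markers of the labelled tissue were detected for 5 of 8 genes. T, Tbx6 and Mesp1, markers of nascent mesoderm, had under 10 counts in every library. Markers of other cell types differed between replicates of 1 group. Levels are given as CPM, counts scaled to the size of each library. The 4 blood markers summed to 377 and 5954 CPM in PD, 18.4 and 1104 CPM in YZ9 and 2190 and 6683 CPM in control. The 6 epithelial markers summed to 621 and 96.0 CPM in PD and 392 and 140 CPM in YZ9, against 3.39 and 16.4 CPM in control. The 10 visceral endoderm markers summed to 40.9 and 9.11 CPM in PD, 1.97 and 4.47 CPM in YZ9 and 2.90 and 3.9 CPM in control. Afp alone gave 34.3 and 5.74 CPM of the PD sums. Of the 10 markers 4 had under 10 counts in every library, with Hnf4a at 0 throughout. The 4 endothelial markers summed to 108 and 94.3 CPM in PD, 150 and 137 CPM in YZ9 and 142 and 136 CPM in control. Kdr and Cdh5 were lower with PD without overlap, Pecam1 was higher with PD without overlap, and Tie1 overlapped. In bulk libraries, fewer cells of a type and less RNA per cell cannot be told apart.

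**Figure D1:**
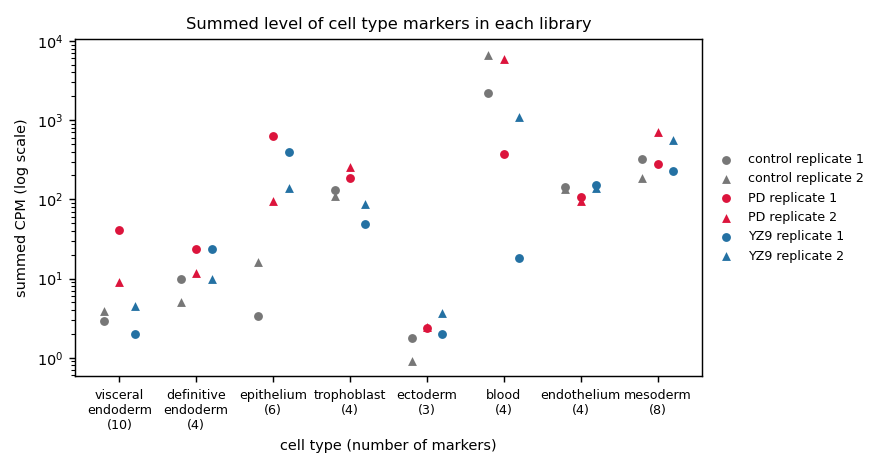
Summed CPM (log scale) of the defining markers of 8 cell types in each library, with circles for replicate 1 and triangles for replicate 2. Blood markers ranged from 18.4 CPM in YZ9 replicate 1 to 6683 CPM in control replicate 2, and epithelial markers were higher in all 4 inhibitor libraries than in both controls. The trophoblast sum is almost all Plac1, with 184.1 of 184.2 CPM in PD replicate 1 and 255.0 of 255.4 CPM in PD replicate 2. Of the 4 trophoblast markers 2 had under 10 counts in every library.

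In the direct comparison, genes of the ERK response had far lower levels with PD, while single genes such as Epha3, S1pr3 and Cd59a had lower levels with YZ9. No gene reached an adjusted p under 0.05 in edgeR's quasi-likelihood test of the 4 libraries with Benjamini-Hochberg adjustment, which is 0.0% of the 14926 genes. The smallest adjusted p was 0.193 and was shared by 6 genes. At an unadjusted p under 0.05 there were 1535 genes. Of these, PD was higher for 944 (6.32% of genes tested) and lower for 591 (3.96%). limma-trend and edgeR's newer quasi-likelihood fit also called 0 genes, whereas DESeq2 on the same genes called 404. When all 6 libraries shared 1 estimate of spread, 19 genes passed (0.127%), 12 with PD higher and 7 with PD lower. Without YZ9 replicate 1 the genes with PD lower at an unadjusted p under 0.05 numbered 183, and without YZ9 replicate 2 those with PD higher numbered 603.

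Both PD libraries lay above both YZ9 libraries for 3269 genes (21.9%) and below both for 3164 genes (21.2%). The median log2 difference over all genes was -0.001, and the median absolute difference was 0.30. Replicates of 1 group differed by about as much, with a median absolute log2 difference of 0.33 between the PD libraries and 0.30 between the YZ9 libraries. An absolute log2 difference of at least 1 was seen for 1911 genes, with PD higher for 1121 of them and lower for 790.

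The position of the controls sorted the differences. A gene was put on the PD side where the control mean lay at least 2 times as far from PD as from YZ9 on the log2 CPM scale, on the YZ9 side for the reverse, and otherwise called shared. Of the 944 genes with PD higher at an unadjusted p under 0.05, 304 (32.2%) were on the PD side and 408 (43.2%) on the YZ9 side. Of the 591 genes with PD lower, 249 (42.1%) were on the PD side and 211 (35.7%) on the YZ9 side. Over all genes tested the shares were 24.7% on the PD side and 31.3% on the YZ9 side. Among the 944 genes, 227 (24.05%) had both PD libraries above and both YZ9 libraries below both controls. Among the 591 genes 88 (14.89%) showed the opposite order. Over all genes tested these shares were 2.32% and 1.32%. Both sets were picked for a difference between the inhibitors, which by itself favours such an order, so the counts are not a result about these genes. The sides are a description without a test of their own.

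**Figure D2:**
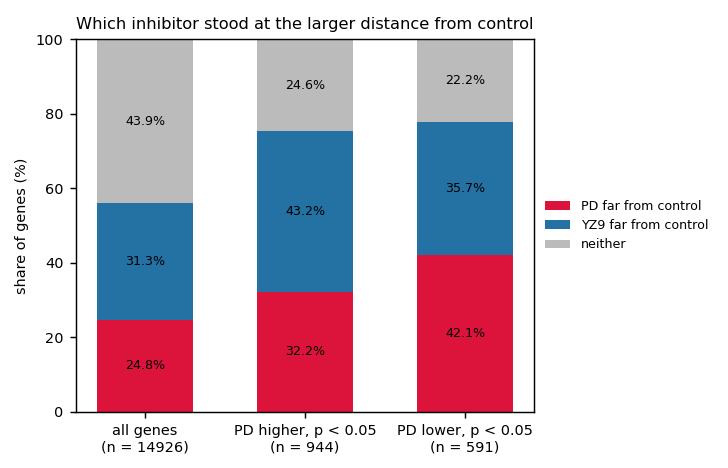
Share of genes (%) by the inhibitor at the larger distance from control, for all 14926 genes tested and for genes with an unadjusted p under 0.05 with PD higher or lower. Among genes with PD lower, 42.1% were on the PD side, and among genes with PD higher, 43.2% were on the YZ9 side.

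ERK feedback and target genes stood furthest from the all-gene median among the 44 gene lists described. Their median log2 difference was -2.55 over 28 of 30 listed genes, the other 2 being under the count minimum, against -0.001 for all genes. PD was lower at an unadjusted p under 0.05 for 17 and higher for 0, and both PD libraries were below both YZ9 libraries for 21. For this and the later lists, the shares over all genes were 3.96% with PD lower and 6.32% with PD higher. Both PD libraries were below both YZ9 libraries for 21.2% of all genes. Relative to control the list's median was -2.79 with PD and -0.12 with YZ9, and 25 of the 28 members were on the PD side. None of the 28 passed the adjusted threshold in the fit of 4 libraries, and 5 passed with all 6. With each library left out in turn the median ran from -2.97 to -2.16. Of the 44 list medians 39 changed sign or moved by more than 1.5 times when 1 library was left out, and the 5 that did not were those of ERK targets, BMP genes, megakaryocyte genes, early embryonic genes and guidance genes. The remaining 11 members did not reach an unadjusted p under 0.05, and Ier3, Mcl1 and Plaur had positive differences of 0.30, 0.08 and 0.61.

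The Sprouty genes, which encode inhibitors of receptor tyrosine kinase signalling, were low in both PD libraries. Spry4 had no count in either PD library, 16.9 and 9.61 CPM with YZ9 and 23.7 and 26.5 CPM in control. With PD set to a floor of 3 counts summed over its libraries, Spry4 was at least 216-fold higher with YZ9 (adjusted p = 0.208 with 4 libraries and 0.0279 with all 6, edgeR). Spry2 (chr14:105891947-105896819) was at 8.41 and 4.30 CPM with PD, 90.5 and 74.6 CPM with YZ9 and 76.6 and 103 CPM in control. Its log2 difference was -3.70 ± 0.38 (SE), and the adjusted p was 0.208, or 0.0435 with all 6 libraries. Spry1 was at 1.07 and 2.05 CPM with PD and 18.2 and 9.44 CPM with YZ9. For all 3 Sprouty genes the inhibitor groups did not overlap. The log2 difference of YZ9 from control was -0.12 for Spry2, -0.15 for Spry1 and -0.92 for Spry4, for which both YZ9 libraries were below both controls. The opposite-strand gene Gm42922 covers 24.4% of the exonic length of Spry1, and the kit does not mark strand.

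The Spred genes, whose products block RAF activation, were also low in both PD libraries. Spred1 (chr2:117121374-117182279) was at 6.87 and 6.82 CPM with PD, 52.9 and 42.2 CPM with YZ9 and 53.3 and 50.2 CPM in control. The log2 difference was -2.79 ± 0.23 (SE), with an adjusted p of 0.193 in the fit of 4 libraries and 0.0279 in that of 6. Spred2 was at 0.499 and 0.482 CPM with PD and 8.86 and 4.67 CPM with YZ9, and Spred3 had a log2 difference of -4.36. Il17rd, an inhibitor of FGF signalling also called Sef, was at 1.34 and 2.01 CPM with PD and 16.5 and 9.58 CPM with YZ9.

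Transcription factors and phosphatases of the same list showed the same order. Egr1, an immediate early zinc-finger factor, had 3 counts in PD and 2627 in YZ9, a ratio of 856 with a 95% interval of 293 to 4154 that covers counting error only. Its levels were 79.0 and 28.9 CPM with YZ9 and 46.5 and 29.2 CPM in control. Etv5 and Etv4, ETS factors downstream of FGF, had no count in either PD library. Against the floor over the PD group, Etv5 was at least 351-fold and Etv4 at least 89.9-fold higher with YZ9, where Etv5 was at 34.1 and 10.5 CPM. Dusp6, the phosphatase that inactivates ERK in the cytoplasm, was at 4.38 and 1.12 CPM with PD, 234 and 99.8 CPM with YZ9 and 241 and 228 CPM in control, a log2 difference of -5.91 ± 0.81 (SE). Dusp4 was at 1.54 and 1.20 CPM with PD and 31.3 and 9.44 CPM with YZ9. The adjusted p was 0.193 for Egr1, 0.237 for Dusp6 and 0.281 for Dusp4 in edgeR's fit of 4 libraries. In each of these genes the lowest YZ9 library was above the highest PD library.

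**Figure D3:**
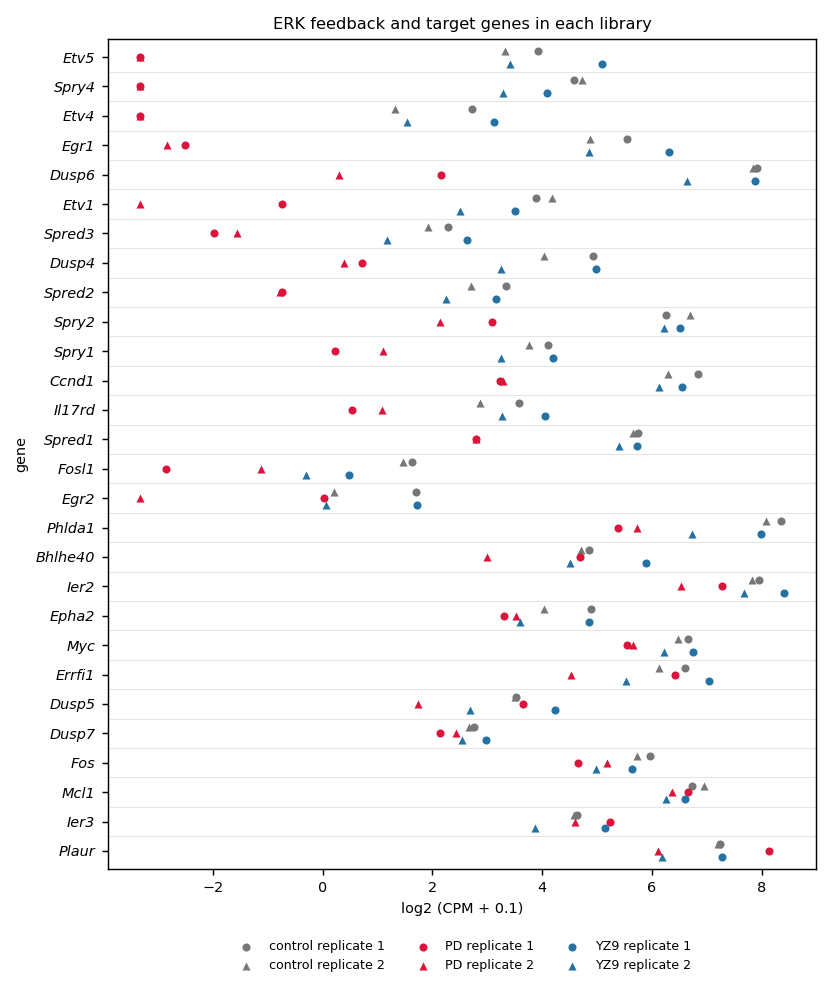
Level of the 28 tested ERK feedback and target genes in each library as log2 (CPM + 0.1), ordered by the PD minus YZ9 difference, with circles for replicate 1 and triangles for replicate 2. For 21 genes both PD points lie left of both YZ9 points, and the YZ9 points of Spred1 and Spry2 lie close to the control points.

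The kinase cascade itself lay near the all-gene median. Over 22 genes of the RAS, RAF, MEK and ERK cascade the median difference was -0.06, with PD higher for 2 and lower for 2 at an unadjusted p under 0.05, and its sign flipped without PD replicate 2. Among 15 of 19 FGF ligands, receptors and co-factors tested, PD was higher for 3 and lower for 2, with a median of 0.56 that was -0.01 without PD replicate 1 and 0.06 without PD replicate 2. Fgfr2 was at 74.3 and 89.0 CPM with PD, 32.5 and 49.8 CPM with YZ9 and 35.4 and 17.7 CPM in control. Flrt3, a membrane partner of FGF receptors, was at 815 and 605 CPM with PD and 111 and 294 CPM with YZ9, an adjusted p of 0.401 (edgeR). Fgf8, an FGF ligand of the primitive streak, went the other way, with 0.960 and 0.361 CPM in PD, 8.72 and 6.01 CPM in YZ9 and 4.55 and 2.27 CPM in control. Of 22 immediate early genes 20 were tested, and 2 were higher and 3 lower with PD, with a median of 0.02 that changed sign in several settings.

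The D-type cyclins, which drive cells from G1 into S phase, had low levels with PD in Ccnd1 and Ccnd2. Ccnd1 (chr7:144929931-144939925) had the smallest p of all genes, with 9.25 and 9.59 CPM in PD, 93.9 and 69.6 CPM in YZ9 and 114 and 78.1 CPM in control. The log2 difference was -3.12 ± 0.23 (SE), with an adjusted p of 0.193 and, with all 6 libraries, 0.0279. Ccnd2 was at 101 and 126 CPM with PD and 465 and 323 CPM with YZ9, a log2 difference of -1.80 ± 0.23 (SE) and an adjusted p of 0.225. Over 19 D-type cyclins and G1 regulators, 4 were lower and 1 higher with PD at an unadjusted p under 0.05, with a median of -0.18. Without YZ9 replicate 1, 2 were lower, and the median was -0.06 without PD replicate 1 and -0.30 without YZ9 replicate 2. Of 23 replication and mitosis genes, 1 (Rrm2, a ribonucleotide reductase subunit) was lower and 0 higher, with a median of -0.11 that flipped sign without YZ9 replicate 2.

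Other genes lower with PD lay outside the ERK list. Id1 (chr2:152736251-152737410), an inhibitor of basic helix-loop-helix factors and a BMP target, was at 16.2 and 9.15 CPM with PD, 101 and 78.2 CPM with YZ9 and 66.4 and 57.3 CPM in control. PD lay below and YZ9 above both controls, and the log2 difference of -2.82 ± 0.34 (SE) had an adjusted p of 0.214, or 0.0498 with all 6 libraries. Ppp1r14c, a phosphatase inhibitor, was at 1.23 and 1.00 CPM with PD and 12.7 and 8.87 CPM with YZ9. Chn2, a Rac GTPase-activating protein, was at 4.42 and 3.77 CPM with PD and 17.8 and 16.5 CPM with YZ9. Transcripts on the opposite strand cover 29.2% of the exonic length of Ppp1r14c and 23.4% of that of Ccnd1, and reads of the strands cannot be told apart. Dynlt1a, a dynein light chain, had 8 and 3 counts in PD, 143 and 194 in YZ9 and 15 and 17 in control. It has near-identical copies, of which Dynlt1b had 337 and 308 counts in PD and 390 and 182 in YZ9, so its value is uncertain.

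**Figure D4:**
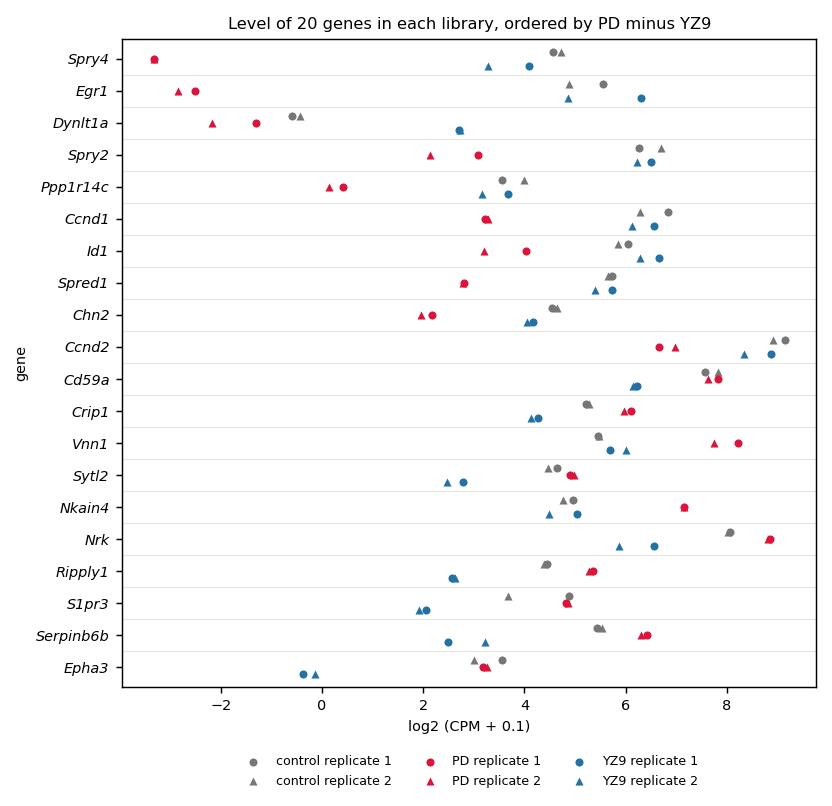
Level in each library, as log2 (CPM + 0.1), of the 10 genes with PD lower and the 10 with PD higher that had the smallest p under the naming rule. PD points of Spry4, Ccnd1 and Spred1 lie apart from YZ9 and control points, while YZ9 points of Epha3, S1pr3 and Cd59a lie apart from PD and control points.

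Genes higher with PD were split between both sides. Nkain4 and Vnn1 were on the PD side. Nkain4 (chr2:180934772-180954699), which encodes an interactor of the sodium pump, was at 142 and 142 CPM with PD, 32.7 and 22.3 CPM with YZ9 and 31.1 and 27.1 CPM in control. The log2 difference was 2.37 ± 0.23 (SE), with an adjusted p of 0.208 and, with all 6 libraries, 0.0404. Vnn1 (chr10:23894688-23905343), a pantetheinase that releases cysteamine, was at 299 and 214 CPM with PD, 51.2 and 64.5 CPM with YZ9 and 43.6 and 44.5 CPM in control. Its log2 difference of 2.15 ± 0.23 (SE) had an adjusted p of 0.214, or 0.0443 with all 6.

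Other genes with PD higher were on the YZ9 side, where YZ9 lay further from control than PD did. Epha3 (chr16:63543534-63864175), an ephrin receptor, was at 8.95 and 9.51 CPM with PD, 0.671 and 0.807 CPM with YZ9 and 11.7 and 7.91 CPM in control. The log2 difference was 3.63 ± 0.38 (SE), adjusted p 0.208 and, with all 6 libraries, 0.0443. S1pr3, a receptor for sphingosine 1-phosphate, was at 28.1 and 29.1 CPM with PD, 4.07 and 3.70 CPM with YZ9 and 29.5 and 12.7 CPM in control, with an adjusted p of 0.193 and, with all 6, 0.094. Cd59a (chr2:104095801-104115354), which blocks the membrane attack complex of complement, was at 227 and 198 CPM with PD, 74.9 and 70.4 CPM with YZ9 and 188 and 225 CPM in control. Its difference from control was 0.04 with PD and -1.51 with YZ9. Emp3, a membrane protein, was at 72.0 and 97.3 CPM with PD and 21.6 and 16.1 CPM with YZ9, and Slitrk4, a neuronal adhesion protein, had a log2 difference of 1.70. Prkcq, a protein kinase C, had no count in YZ9, where PD had 114 counts over its 2 libraries, at least 38.9-fold more against the floor. PD, at 2.65 and 1.81 CPM, was itself below the controls, at 4.29 and 7.95 CPM. Prkcq was picked after its values had been seen.

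Several genes stood on opposite sides of the controls, with PD above and YZ9 below. Ripply1 (chrX:139779549-139782353), a repressor of T-box activity in somite formation, was at 40.6 and 38.4 CPM with PD, 5.86 and 6.08 CPM with YZ9 and 21.6 and 20.9 CPM in control. Replicates within each of the 3 groups lay close together for Ripply1, and the log2 difference of 2.73 ± 0.22 (SE) had an adjusted p of 0.193, or 0.0279 with all 6 libraries. Serpinb6b, a serine protease inhibitor, was at 85.1 and 78.4 CPM with PD, 5.55 and 9.27 CPM with YZ9 and 43.0 and 46.0 CPM in control. Nrk, an X-linked kinase known from the placenta, was at 464 and 449 CPM with PD, 94.9 and 58.6 CPM with YZ9 and 267 and 260 CPM in control. Crip1, a LIM-domain protein, was at 69.2 and 62.7 CPM with PD and 19.1 and 17.4 CPM with YZ9. Sytl2, an effector of Rab27 in vesicle transport, was at 29.6 and 31.3 CPM with PD and 6.84 and 5.41 CPM with YZ9. Fas, the death receptor, was at 72.9 and 60.9 CPM with PD, 25.2 and 21.1 CPM with YZ9 and 47.9 and 56.8 CPM in control. Ripply1 and Nrk are X-linked, as are Slitrk4, Plac1 and Pdk3, which were also higher with PD. X-linked genes made up 4.87% of the genes with PD higher at an unadjusted p under 0.05 and 3.62% of all genes tested.

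Primitive streak genes had a median well below that of all genes. Of 17 listed, 11 were tested, 6 were lower and 0 higher at an unadjusted p under 0.05, and the median was -1.96. Without YZ9 replicate 2 the median was -1.03 with 4 lower, and the replicate medians were -0.73 and -2.61. The T-box factor Eomes, needed for mesoderm and endoderm specification, had no count in PD, 3.00 and 9.44 CPM with YZ9 and 6.96 and 5.49 CPM in control, at least 113-fold higher with YZ9 against the floor. Tdgf1, the Nodal co-receptor Cripto, was at 0.576 and 0 CPM with PD and 13.5 and 6.92 CPM with YZ9. Mixl1 was at 0.0384 and 0.241 CPM with PD and varied in YZ9 from 0.939 to 11.0 CPM. The adjusted p was 0.281 for Eomes, 0.38 for Tdgf1 and 0.416 for Mixl1 (edgeR). The list's median was -0.77 relative to control with PD and 0.05 with YZ9. Of its 11 members tested, 3 were on the PD side, 5 on the YZ9 side and 3 were shared. Of 7 paraxial mesoderm genes tested of 15, 0 differed at an unadjusted p under 0.05, and Lfng, the smallest by p, was at 1.88 and 3.01 CPM with PD and 5.55 and 2.32 CPM with YZ9. The Nodal list, with 9 tested, held 1 gene higher and 1 lower.

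WNT targets included genes that were higher with YZ9 than in control. Of 13 tested of 17, 5 were lower with PD and 0 higher at an unadjusted p under 0.05, with a median of -0.60. Without PD replicate 1 the median was -1.06, and without YZ9 replicate 2 there were 3 lower. Relative to control the list's median was 0.42 with PD and 0.36 with YZ9. Of the 13 members 6 were on the PD side, 4 on the YZ9 side and 3 were shared. Sp5, a direct WNT target, was at 0.691 and 0.321 CPM with PD, 3.80 and 2.55 CPM with YZ9 and 0.263 and 0.341 CPM in control. Axin2, which encodes a feedback inhibitor of WNT, was at 4.07 and 3.57 CPM with PD, 8.14 and 6.45 CPM with YZ9 and 1.77 and 2.20 CPM in control, above control with both inhibitors. Lef1, a TCF/LEF factor, was at 28.2 and 37.5 CPM with PD, 77.1 and 60.8 CPM with YZ9 and 65.6 and 46.7 CPM in control. Cdx2, a caudal homeobox factor, was at 0.691 and 0.522 CPM with PD, 5.50 and 6.12 CPM with YZ9 and 7.41 and 1.63 CPM in control. Adjusted p values were 0.37 for Sp5, 0.465 for Axin2, 0.336 for Lef1 and 0.235 for Cdx2 (edgeR). Wnt6, a ligand picked after its values had been seen, was at 2.07 and 1.12 CPM with PD, 16.7 and 10.4 CPM with YZ9 and 0.263 and 0.265 CPM in control.

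BMP ligands and targets had a median of -0.74 over 16 genes, with 3 lower with PD and 0 higher; without PD replicate 1, 7 were lower, and without YZ9 replicate 1 or 2, 2 were. Besides Id1, Bambi, a pseudoreceptor that damps BMP signalling, was at 118 and 111 CPM with PD, 165 and 235 CPM with YZ9 and 163 and 132 CPM in control. Bmper, which binds BMPs outside the cell, had a log2 difference of -1.30 ± 0.35 (SE). In the Notch list, 16 of 18 genes were tested, 3 were lower with PD and 0 higher, and the median was -0.40, with a flip of sign without YZ9 replicate 1. The receptor Notch1 was at 1.57 and 2.97 CPM with PD and 10.0 and 7.23 CPM with YZ9, and the ligand Jag1 at 22.2 and 9.19 CPM with PD and 50.3 and 29.4 CPM with YZ9, below 143 and 168 CPM in control. Dll4, a ligand of arterial endothelium, had 1 count in PD and 38 in YZ9, a ratio of 37.2 with a 95% counting interval of 6.28 to 1505.

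The endothelial list also had a median below that of all genes. Of 18 tested, 5 were lower and 0 higher at an unadjusted p under 0.05, and the median was -0.75. Both PD libraries were below both YZ9 libraries for 10 and above both for 1. Relative to control the list's median was -0.49 with PD and -0.01 with YZ9. Of the 18 members 6 were on the PD side, 5 on the YZ9 side and 7 were shared. The median was -0.39 without YZ9 replicate 1 and -0.47 with 2 lower without PD replicate 2. Kdr, the VEGF receptor of blood and vessel progenitors, was at 45.8 and 44.8 CPM with PD, 90.2 and 76.3 CPM with YZ9 and 56.3 and 45.3 CPM in control. Its log2 difference was -0.88 ± 0.17 (SE), with an adjusted p of 0.29 (edgeR), and YZ9 stood 0.71 above control. Cldn5, an endothelial tight junction protein, was at 3.23 and 3.33 CPM with PD, 7.83 and 7.93 CPM with YZ9 and 1.36 and 2.35 CPM in control. Esam, an endothelial adhesion molecule, was at 9.29 and 6.66 CPM with PD and 14.9 and 18.1 CPM with YZ9. Pecam1 went the other way, at 37.94 and 37.98 CPM with PD and 27.55 and 34.34 CPM with YZ9.

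Cardiac transcription factors had a negative difference for 8 genes and a positive one for 4. Of 12 tested, 3 were lower with PD and 0 higher, with a median of -0.31. Without PD replicate 1, 6 were lower and the median was -0.80. Nkx2-5, a factor of heart progenitors, was at 1.84 and 0.562 CPM with PD, 39.8 and 13.1 CPM with YZ9 and 15.2 and 3.41 CPM in control. Gata5 was at 2.50 and 1.16 CPM with PD, 13.1 and 9.38 CPM with YZ9 and 7.45 and 3.71 CPM in control, PD below and YZ9 above both controls. Mef2c was below control with both inhibitors, at 66.9 and 31.1 CPM with PD and 122 and 82.7 CPM with YZ9 against 184 and 203 CPM. The adjusted p was 0.29 for Nkx2-5, 0.29 for Gata5 and 0.478 for Mef2c (edgeR). Of 15 cardiac sarcomere genes 1 was lower with PD, Actn2, and the median was -0.63. It depended on single libraries, with -2.14 and 11 lower without PD replicate 1, -1.05 without YZ9 replicate 2, and -0.07 and -0.08 without PD replicate 2 and without YZ9 replicate 1.

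Blood genes had the highest median, 2.00 over 15 genes, with 2 higher and 0 lower with PD at an unadjusted p under 0.05. Relative to control the list's median was 0.016 with PD and -2.17 with YZ9. Of the 15 members 13 were on the YZ9 side and 0 on the PD side. Replicate 1 of each inhibitor had a lower sum of the blood markers than replicate 2, and without PD replicate 2 the list's median was -0.40, without YZ9 replicate 1 it was 1.22 and without YZ9 replicate 2 it was 5.43; the part of these sums in the difference was not tested. The embryonic globin Hbb-y was at 72.4 and 486 CPM with PD, 1.21 and 13.3 CPM with YZ9 and 232 and 668 CPM in control, without overlap between the inhibitors. Hbb-bh1 did overlap, with 191 and 3466 CPM in PD and 14.3 and 443 CPM in YZ9. Megakaryocyte and platelet genes had a positive difference for 10 of 10 genes tested, with a median of 1.65, and 2 were higher with PD and 0 lower. The median ran from 1.25 to 1.87 with 1 library left out. Relative to control the list's median was -1.55 with PD and -3.42 with YZ9, and 8 of the 10 members were shared. Tubb1, the tubulin of platelets, was at 2.54 and 2.49 CPM with PD, 0.268 and 0.302 CPM with YZ9 and 17.4 and 21.0 CPM in control, below control with both inhibitors and lowest with YZ9. Its log2 difference of 3.11 ± 0.54 (SE) had an adjusted p of 0.281 in the fit of 4 libraries and 0.0498 in that of 6.

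Epithelial genes separated both inhibitors from control rather than from each other. The list's median was 3.88 above control with PD and 3.95 above control with YZ9, values that share the same controls, and 0.25 between the inhibitors, with a sign that flipped without PD replicate 1 or YZ9 replicate 2. Cdh1, the epithelial cadherin, was at 79.7 and 21.6 CPM with PD, 112 and 30.6 CPM with YZ9 and 1.84 and 3.83 CPM in control. Cldn6, a tight junction protein of early epithelia, was at 448 and 56.4 CPM with PD, 199 and 75.2 CPM with YZ9 and 0.263 and 8.33 CPM in control. PD and YZ9 overlapped for both genes, and the sign of each difference depended on the library left out. Of the 20 genes 2, both keratins, were higher with PD at an unadjusted p under 0.05, near the 6.32% of all genes, and 0 were lower. Without PD replicate 1 or without YZ9 replicate 2, 0 were higher. Krt19 was at 1020 and 737 CPM with PD, 554 and 373 CPM with YZ9 and 819 and 508 CPM in control. Krt8 was at 4855 and 3920 CPM with PD, 3304 and 3107 CPM with YZ9 and 2695 and 2086 CPM in control.

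Visceral endoderm genes were higher with PD for 3 of 12 tested and lower for 1 at an unadjusted p under 0.05, and without YZ9 replicate 1 for 1 and 1. Afp was at 34.3 and 5.74 CPM with PD, 0.313 and 1.78 CPM with YZ9 and 0.903 and 0.568 CPM in control. Rbp4, the plasma retinol carrier, was at 51.8 and 8.75 CPM with PD and 3.49 and 3.43 CPM with YZ9. PD replicate 1 held most of the Afp and Rbp4 counts, and the part of that library's cell content in the difference was not tested. Apoe went the other way, with 114 and 56.8 CPM in PD, 308 and 271 CPM in YZ9 and 245 and 245 CPM in control. Foxa2, a definitive endoderm factor, was at 6.49 and 3.17 CPM with PD, 1.03 and 0.941 CPM with YZ9 and 0 and 0.151 CPM in control, and of the 8 definitive endoderm genes tested 1 was higher. Vtn, which encodes vitronectin, was at 5.34 and 3.09 CPM with PD, 0 and 0.134 CPM with YZ9 and 0 in both controls.

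Among genes of the early embryo, differences with a small p all had PD lower. Of 9 tested of 12, 5 were lower and 0 higher, and the median was -0.80; without YZ9 replicate 1, 3 were lower. Lin28a, an RNA-binding protein that blocks let-7 maturation, was at 219 and 152 CPM with PD, 406 and 461 CPM with YZ9 and 459 and 467 CPM in control. Trim71, a let-7 target, was at 49.7 and 62.1 CPM with PD, 140 and 121 CPM with YZ9 and 118 and 87.6 CPM in control. Lin28b was at 30.0 and 25.2 CPM with PD and 55.3 and 40.9 CPM with YZ9. Hmga2, a chromatin protein and let-7 target, was below control with both inhibitors, at 156 and 66.5 CPM with PD and 248 and 235 CPM with YZ9 against 490 and 648 CPM. The adjusted p was 0.281 for Lin28a, 0.268 for Trim71 and 0.465 for Hmga2 (edgeR). Of 11 imprinted growth genes, 2 were lower and 0 higher, with Igf2r at 294 and 234 CPM with PD and 609 and 471 CPM with YZ9.

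Sugar metabolism lists held few genes with a small p. Of 24 glycolysis enzymes, 2 were lower and 0 higher with PD at an unadjusted p under 0.05, and the median was 0.06, with a flip of sign without PD replicate 2. Hk2, a hexokinase, was at 61.0 and 68.6 CPM with PD, 87.1 and 86.8 CPM with YZ9 and 124 and 112 CPM in control. Pgam2 was at 3.76 and 2.81 CPM with PD and 7.92 and 11.2 CPM with YZ9. Pfkfb3, the gene of the reported YZ9 target, was at 42.7 and 24.4 CPM with PD, 91.7 and 29.6 CPM with YZ9 and 70.8 and 33.4 CPM in control. The inhibitor groups overlapped for Pfkfb3, with an adjusted p of 0.651, and for Ldha, with 489 and 1069 CPM in PD and 641 and 689 CPM in YZ9. Among 9 glucose and lactate transporters 1 was higher and 1 lower. The lower one, Slc2a8, was at 1.805 and 4.26 CPM with PD and 12.1 and 7.29 CPM with YZ9, a log2 difference of -1.67. Slc2a3, a glucose transporter, was at 1153 and 1920 CPM with PD and 1402 and 1706 CPM with YZ9, above 457 and 284 CPM in control, and the log2 difference between the inhibitors was -0.02 ± 0.27 (SE). Slc2a1 was at 3118 and 6269 CPM with PD and 2500 and 3338 CPM with YZ9. Of 12 hexosamine pathway genes 2 were higher, with Nagk, which phosphorylates N-acetylglucosamine, at 54.7 and 54.4 CPM with PD, 32.2 and 34.1 CPM with YZ9 and 38.5 and 39.5 CPM in control.

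Cholesterol synthesis genes were higher with PD for 4 of 24 at an unadjusted p under 0.05 and lower for 0, with a median of 0.24. Without PD replicate 2 the counts were 1 and 2 with a median of 0.13, and without YZ9 replicate 1 they were 1 and 0 with a median of 0.13, beside 6.32% and 3.96% of all genes. Relative to control the medians were 0.61 with PD and 0.38 with YZ9. Sc5d, a late enzyme of the pathway, was at 141 and 157 CPM with PD, 81.8 and 100 CPM with YZ9 and 98.1 and 102 CPM in control. Fdft1, the squalene synthase, was at 186 and 195 CPM with PD and 119 and 144 CPM with YZ9. Of 9 pentose phosphate genes 0 differed at an unadjusted p under 0.05, the smallest being that of Prps1, at 145 and 158 CPM with PD and 117 and 129 CPM with YZ9. Of 22 genes of pyruvate entry and the citric acid cycle 1 was higher, with Pdk3 at 79.0 and 106 CPM with PD and 60.2 and 63.8 CPM with YZ9. The 42 ribosomal protein genes and the 7 mitochondrially encoded genes tested held 0 genes at that level, with medians of -0.06 and -0.07. Their smallest p values were those of Rpl28, with a log2 difference of -0.29, and mt-Nd4, with -0.23.

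Some matrix and adhesion genes were on the YZ9 side. Col3a1 was at 203 and 305 CPM with PD, 60.5 and 22.5 CPM with YZ9 and 295 and 259 CPM in control, a log2 difference of 2.62 ± 0.52 (SE) with an adjusted p of 0.303 (edgeR). Postn, a matrix protein of mesenchyme, was at 783 and 1551 CPM with PD, 158 and 331 CPM with YZ9 and 821 and 733 CPM in control. Vcam1, the adhesion receptor of the allantois in fusion with the chorion, was at 47.8 and 93.4 CPM with PD, 14.9 and 16.0 CPM with YZ9 and 47.1 and 39.4 CPM in control. Actg2, a smooth muscle actin, was at 129 and 101 CPM with PD and 44.4 and 20.1 CPM with YZ9. The collagen list as a whole was divided, with 3 of 18 higher and 3 lower, since Col14a1 was at 0.192 and 0.281 CPM with PD and 1.92 and 1.48 CPM with YZ9. Of 9 allantois and extraembryonic mesoderm genes tested, 3 were higher and 2 lower. Tbx2 was among the lower ones, at 0.576 and 0.281 CPM with PD, 3.40 and 3.53 CPM with YZ9 and 0.527 and 1.02 CPM in control. Tbx3, its close relative, was picked after its values had been seen and was at 3.30 and 6.95 CPM with PD, 17.4 and 34.2 CPM with YZ9 and 3.65 and 1.48 CPM in control.

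Retinoic acid genes were also divided, with 3 of 13 higher, 2 lower and a median of 0.55. The median was 0.04 with 1 higher without PD replicate 1, 1.04 without PD replicate 2 and 1.14 without YZ9 replicate 1. Dhrs3, which turns retinal back into retinol, was at 56.6 and 45.6 CPM with PD, 12.7 and 23.2 CPM with YZ9 and 23.7 and 26.6 CPM in control. Cyp26a1, which degrades retinoic acid, was at 10.5 and 4.46 CPM with PD, 16.5 and 30.2 CPM with YZ9 and 9.22 and 7.01 CPM in control. Cyp26b1, with the same activity, was at 5.61 and 1.65 CPM with PD and 0.894 and 0.538 CPM with YZ9. In the other lists the counts of genes higher and lower with PD stand beside 6.32% and 3.96% of all genes. They were 4 and 1 of 22 for heparan sulfate and proteoglycan genes, with Sdc2 at 160 and 184 CPM with PD and 112 and 90.7 CPM with YZ9, 3 and 1 of 22 for guidance genes, 3 and 0 of 15 for SRF targets, and 1 and 0 of 18 for integrins, laminins and fibronectin. They were 4 and 3 of 25 for the ATF4 and unfolded protein response, 1 and 1 of 17 for hypoxia, 1 and 1 of 17 for p53 targets, 1 and 0 of 13 for EMT factors and mesenchymal markers, 1 and 1 of 16 for Hox and Meis genes, 1 and 0 of 5 for trophoblast genes, and 0 and 0 of 5 for ectoderm genes. With 1 library left out, the genes with PD higher ran from 1 to 5 for the guidance, SRF and ATF4 lists and from 0 to 4 for hypoxia. The members with the smallest p were Sema3c of the guidance list, with a log2 difference of 2.50, Sesn2 of the ATF4 list with -0.94, P4ha2 of the hypoxia list with 0.91, Hoxb9 of the Hox list with -2.99 and Pou3f1 of the ectoderm list with 0.22.

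**Figure D5:**
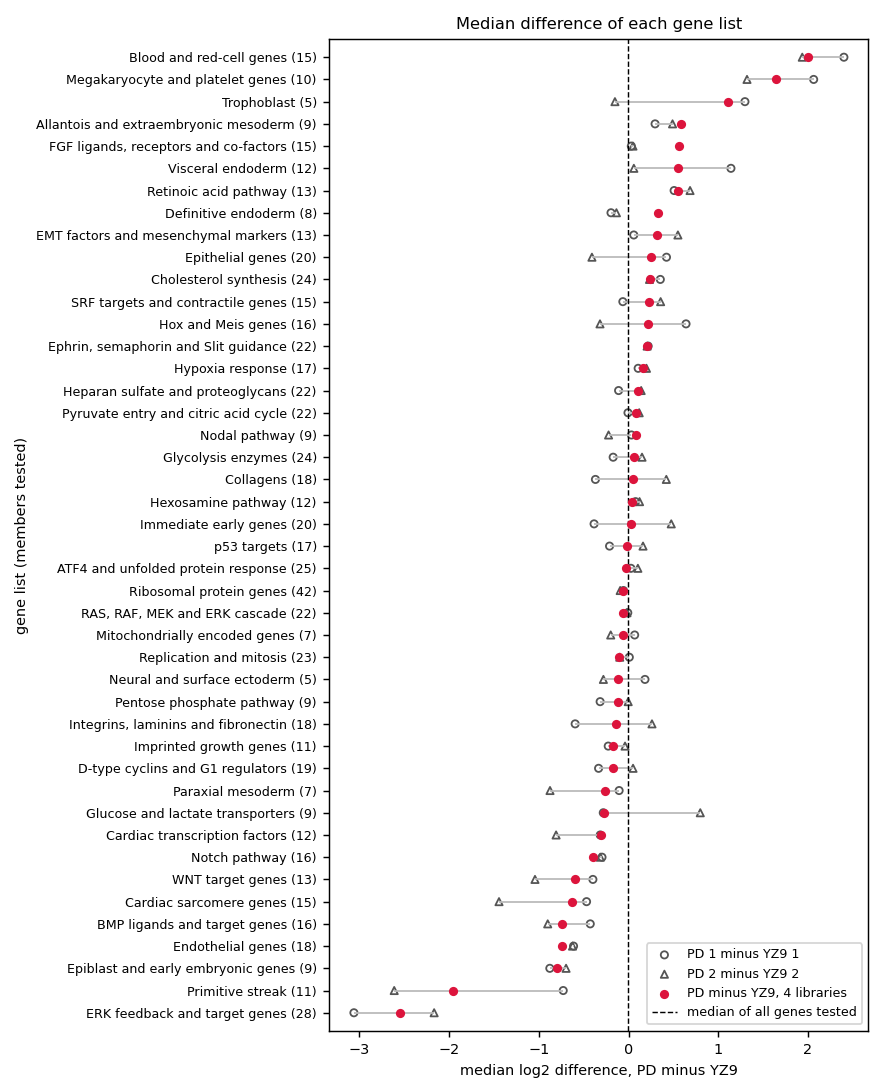
Median log2 difference of PD minus YZ9 for 44 gene lists, from the fit of 4 libraries (filled) and from replicate 1 alone or replicate 2 alone (open circle and triangle), with the median of all 14926 genes as a dashed line at -0.001. The ERK list lies at -2.55, primitive streak genes at -1.96 and blood genes at 2.00, and most other lists lie close to the line.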

How the data were processed

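Polyadenylated RNA of 6 libraries was measured. The submitters' processing notes name CASAVA 1.8.2, STAR 2.7.9a, DESeq2 1.40.1 and the GRCm38 build; how reads were counted, and on which annotation, is not given in the sources used here. The values used were the raw counts per gene that the authors deposited; 8 columns of scaled per-sample values were not used. The PD and YZ9 tables were joined by gene identifier. Genes with at least 10 counts in at least 2 of the 4 inhibitor libraries were fitted in edgeR 4.0.16 (R 4.3.3) with TMM scaling and the quasi-likelihood F test (2-sided), with Benjamini-Hochberg adjustment over all 14926 genes and a threshold of 0.05. CPM levels and differences from control came from TMM scaling and a fit of all 6 libraries. DESeq2 1.42.0 and limma 3.58.1 were alternatives. Positions are those of GENCODE genes on GRCm38, 1-based. The counts are without molecular identifiers, so intervals and floors cover counting error only.

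Named genes were the 10 per direction with the smallest p among genes with a symbol that is not a predicted gene or clone, a mean scaled count of 50 or more for the higher inhibitor and no overlap between inhibitors; the member of each list with the smallest p; a fixed set of ERK, cyclin, glucose and mesoderm genes; the 19 genes called with all 6 libraries; and other list members, with Wnt6, Tbx3 and Prkcq, picked after their values had been seen. One gene that the rule picks is not reported here. The members and the 44 lists were chosen with earlier results of these data known. PD minus control and YZ9 minus control share the controls, so no overlap or correlation between them is given.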

Additional observations from a re-analysis of the deposited data

Results flagged for a closer look

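For 18 named genes that were flagged, both PD libraries lay on one side of both controls and both YZ9 libraries on the other. Gata5 and Bambi, named above as other list members, also had PD below and YZ9 above both controls and are not among the 18. This is an order of single libraries: in the fit of all 6 libraries (edgeR) neither PD nor YZ9 reached an adjusted p under 0.05 against control for any of the 18. The test of the difference between the inhibitors is edgeR's PD minus YZ9 fit, in which none of the 18 reached an adjusted p under 0.05 with 4 libraries, while with all 6 libraries Ripply1, Serpinb6b, Crip1, Nrk, Sytl2 and Id1 did. PD was above and YZ9 below control for Ripply1, with a log2 difference of 2.73, Serpinb6b with 3.46, Crip1 with 1.85, Nrk with 2.57 and Sytl2 with 2.31. The same order held for Fas at 1.53, Vcam1 at 2.19, the mesenchymal factor Twist2 at 1.37, Plac1 at 1.71, Dhrs3 at 1.51, Nagk at 0.72 and Pdk3 at 0.58. PD was below and YZ9 above control for Id1 at -2.82, Dynlt1a at -4.88, Trim71 at -1.23, Col13a1 at -4.31, Fgf8 at -3.46 and Apoe at -1.76. Over all genes tested, 346 had PD above and YZ9 below both controls (2.32%) and 197 the reverse (1.32%). Named genes were picked in part for a small p of the difference or for being called with all 6 libraries. The number flagged and the calls with all 6 libraries are therefore not a result about this order. Transcripts on the opposite strand cover 46.5% of the exonic length of Twist2, and Col13a1 rests on 3 counts in PD and 65 in YZ9.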

How the results depend on the processing

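Against 0 genes called in the fit of 4 libraries, 1017 were called without the filter on low counts (732 with PD higher, 285 lower, 948 of them among the filtered genes), 404 with DESeq2 (285 and 119) and 19 with all 6 libraries in 1 fit. Leaving out 1 library gave 0 to 4, with 4 without PD replicate 2. DESeq2 size factors, a mean count of at least 50, filterByExpr, the newer edgeR fit, limma-trend and a test against a log2 fold of 1 each gave 0. Genes with an unadjusted p under 0.05 and PD higher numbered 1724 without the filter and 275 against a log2 fold of 1, and 603 to 993 with 1 library left out; with PD lower they numbered 1048 and 149, and 183 to 695 with 1 left out. Of the same 1535 genes, 553 were on the PD side and 619 on the YZ9 side; these counts ran from 510 to 649 and from 510 to 691 with DESeq2 size factors or 1 control left out, and were not recomputed under the other settings. Of 104 named genes, 7 reversed sign when 1 library was left out: Cdh1 from -1.73 to 0.73, Cldn6 from -1.28 to 1.75, Hbb-bh1 from -0.26 to 7.002, Ldha from -0.45 to 0.69, Lfng from -1.18 to 0.077, Pfkfb3 from -1.45 to 0.18, Slc2a3 from -0.43 to 0.31. The median sign of 23 of 44 lists flipped in at least 1 of 15 settings.

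With the replicate number as a block, 225 genes were called (161 higher, 64 lower), 18 of them among the 19 called with all 6 libraries. The labels do not say that a number marks shared material, and with 2 pairs it is only a shared number; deviations of the PD and YZ9 libraries from their group means correlated at 0.375, and the number also separates the sexes. With all 6 libraries and the block, chosen after seeing the data, 12 were called (6 and 6).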
